A study of Rattus norvegicus with 18 samples.

Results

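The hypoxia response of 9L tumours was set against the hypoxia response of 9L cells in culture, gene by gene, to find the genes that answer low oxygen differently in tissue and in cells. All 18 samples of the series entered the contrast. A response is the log2 signal at low oxygen minus the log2 signal at normal oxygen within 1 pair of arrays, and the difference is the mean response of 3 tumours minus the mean of the mean responses at 6 h and at 16 h in culture. A positive difference means a higher response in tumours. Of 27363 probe sets tested, 46 passed the test of the difference at an adjusted p of 0.05, and 31 named genes are among them.

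9L is a rat gliosarcoma line used as a glioma model. The tumour samples came from Fischer rats labelled as male and 6 weeks old, in which transplanted pieces of passaged tumour grew on the epigastric vessels. From each of 3 tumours, 1 hypoxic area with bound EF5, a nitroimidazole that is retained in cells at low oxygen, and 1 normoxic area without it were cut out by laser capture. Cultured 9L cells were kept at 0.2% oxygen or at about 20% oxygen, for 6 h or for 16 h, with 3 arrays in each of these 4 groups, and were detached with trypsin before lysis. The tumours therefore hold host cells and vessels that the cultures lack, their period at low oxygen is not known from the labels, and all of them descend from the same cell line. Nothing in the labels states that culture arrays with different numbers were independent experiments. Their p-values therefore reflect spread among the arrays at hand, possibly of technical origin.

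When oxygen falls, the hydroxylases that mark HIF-1α and HIF-2α for destruction slow down, and the stabilised factors switch on genes of glucose uptake, glycolysis, pH control and vessel growth. Low oxygen also slows protein synthesis through the integrated stress response, whose effectors include the transcription factor ATF4 and its target ATF3. In a tumour, hypoxic areas lie away from vessels, so nutrients, waste products, growth factors and the mix of cells vary along with oxygen, whereas in a dish mainly the gas phase differs.

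The arrays gave log2 signals made with RMA, and precision is limited by how many arrays there are. The SD over probe sets within an array lay between 1.76 and 1.92 in tumour samples and between 2.04 and 2.17 in cultures. Tumour responses varied more from pair to pair than culture responses, with a median SD of 0.334 over probe sets in tumours and 0.196 in cultures, and the test gave each system its own weight for this reason. Levels of glial and neural stem cell genes are given here, and they do not settle the labelled cell type. Vim, an intermediate filament of 9L and of stromal cells, averaged 12.3 in hypoxic and 12.0 in normoxic tumour areas and lay between 12.0 and 12.4 in cultures. Gfap, the defining astrocyte filament, averaged 5.48 in hypoxic and 5.53 in normoxic tumour areas and lay between 4.83 and 5.19 in cultures, below the median of each array. S100b also averaged below the array medians, at 5.31 in hypoxic and 5.14 in normoxic tumour areas and at most 4.92 in cultures. Pdgfra averaged 9.39 in hypoxic and 9.92 in normoxic tumour areas and lay between 8.23 and 9.18 in cultures, above the array medians. Sox2 averaged above them too, with 8.03 in hypoxic tumour areas and 6.49 to 7.19 in cultures. Nes averaged 7.45 in hypoxic and 7.48 in normoxic tumour areas, with 5.91 to 6.41 in cultures.

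The calls ran mostly one way. Of the 46 probe sets, which are 0.168% of those tested, 4 had a higher response in tumours (0.0146% of those tested) and 42 a lower one (0.153%). The unnamed 14 were all on the lower side. In 41 of the 42 lower ones the mean culture response stayed within 0.5 of 0 while the tumour response was below -0.5. These were thus lower in hypoxic than in normoxic tumour areas, with smaller mean changes in the dish. Not all were level there, since Klhl28, Phtf1 and Etfdh had mean culture responses of 0.44, 0.43 and 0.44 that passed by themselves. In 2 called genes, Plau and Eif4e3, the mean responses of tumours and cultures lay beyond 0.5 in opposite directions. All 46 had 3 tumour responses beyond all 6 culture responses. They were chosen by a test on these same responses, so this is not separate support. Over all probe sets, 5.06% had 3 tumour responses above all 6 culture responses, and 3.76% had all 3 below. Before adjustment, 2617 probe sets had p under 0.05 (1029 higher and 1588 lower). Of the calls, 30 fell in the brightest 25% of probe sets, where the median difference of all probe sets was -0.12, against 0.0957 over the whole array.

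The size and the members of this set depended on single pairs. It was 17 without tumour 1, 94 without tumour 2 and 30 without tumour 3. Of these calls, 9, 26 and 15 were among the 46. It was 7 without 16 h culture 22, 23 without 16 h culture 29 and 8 without 6 h culture 13, all of them among the 46. With a variance prior that follows signal strength and is robust to outliers, limma called 0 probe sets, with 2440 at unadjusted p under 0.05. The sign of the difference held for all 31 named genes in all 21 alternatives that measured them, but most of these could not have reversed it. In every called gene the tumour responses lay beyond all culture responses, so leaving out a pair or a culture time kept the sign. Changes of spread, pairing, prior, filter or least difference left the difference itself as it was. Only rescaling the arrays could have changed the sign. The tumour response by itself passed in 26 of the 31 genes (0.563% of all probe sets passed), and the mean culture response in the other 5 (1.23% of all probe sets passed).

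**Figure D1:**
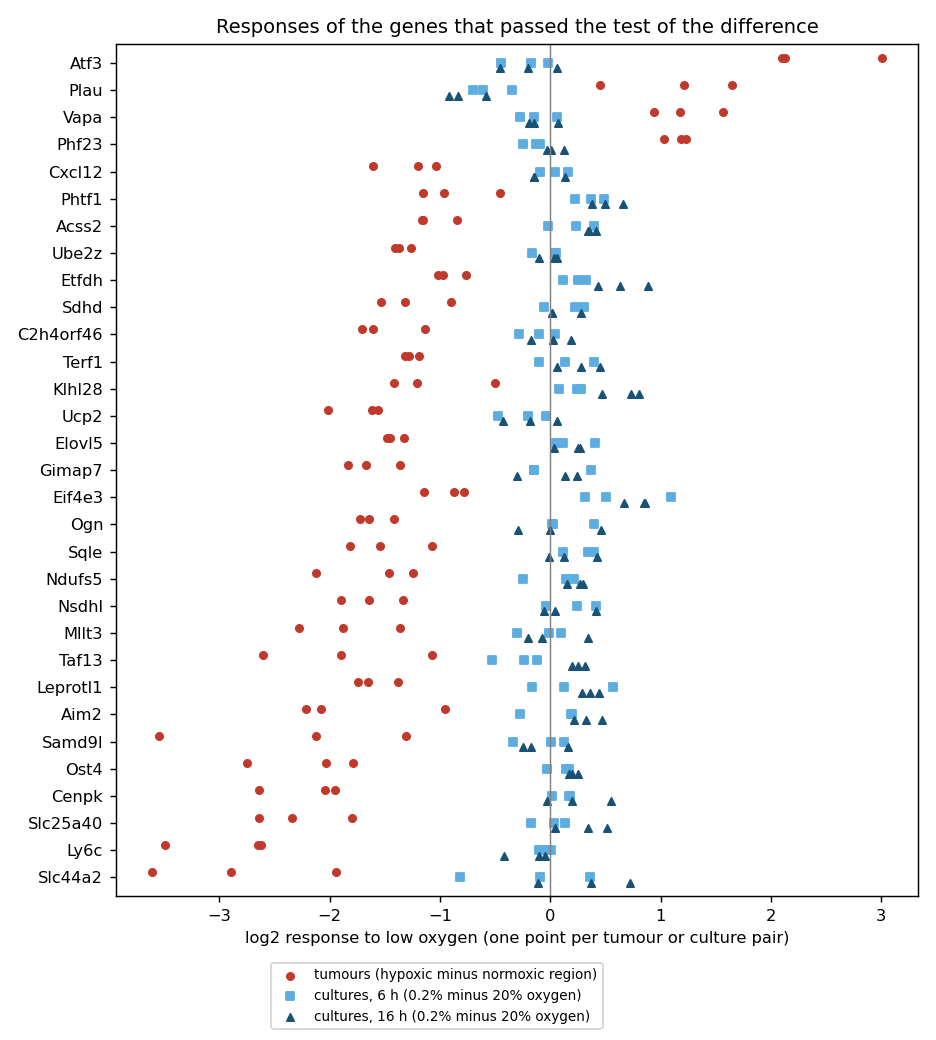
Log2 response to low oxygen (x axis) of the 31 genes that passed the test of the difference (y axis), ordered by the difference, with 1 point per tumour (circles), per 6 h culture pair (squares) and per 16 h culture pair (triangles). Only Atf3, Plau, Vapa and Phf23 have tumour points to the right of the culture points; in the other 27 genes the tumour points lie to the left.

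On the higher side stood 4 of the 31 genes. Atf3, a stress-induced transcription factor of the ATF/CREB family, had the largest positive difference. Its log2 signal was 7.77, 7.65 and 8.96 in the hypoxic areas of tumours 1, 2 and 3, against 5.65, 5.55 and 5.96 in their normoxic areas. In 6 h cultures it was 5.39, 5.26 and 5.10 at 0.2% oxygen, against 5.41, 5.43 and 5.55 at 20%. In 16 h cultures it was 5.16, 5.22 and 4.95 at 0.2% oxygen, against 5.36, 5.16 and 5.41 at 20%. Hypoxic tumour areas thus stood above all other samples, and the 12 culture arrays lay in a narrow band at or below the normoxic tumour areas. The tumour response was 2.41 (a 5.31-fold rise), the culture responses were -0.21 at 6 h and -0.20 at 16 h, and the difference was 2.61 ± 0.27 (SE; limma adjusted p = 0.00435). Atf3 passed in 20 of 21 alternatives.

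Plau encodes the urokinase plasminogen activator, a secreted protease that turns plasminogen into plasmin. Its log2 signal was 8.23, 8.39 and 8.50 in hypoxic areas, against 7.79, 6.75 and 7.29 in normoxic areas of tumours 1, 2 and 3. In 6 h cultures it was 7.04, 7.29 and 7.09 at 0.2% oxygen, against 7.65, 7.64 and 7.80 at 20%. In 16 h cultures it was 6.50, 6.33 and 7.02 at 0.2% oxygen, against 7.42, 7.17 and 7.60 at 20%. The gene was higher at low oxygen in each tumour and lower at low oxygen in each of the 6 culture pairs. The tumour response was 1.10, the culture responses were -0.55 at 6 h and -0.78 at 16 h, and the difference was 1.77 ± 0.26 (SE; limma adjusted p = 0.0285). By itself the tumour response of Plau did not pass (limma adjusted p = 0.0818), whereas its mean culture response did (adjusted p = 0.00274). The difference passed in 13 of 21 alternatives and in 4 of the 9 fits that left out a pair. It no longer passed without tumour 2 (1.50, limma adjusted p = 0.0613), tumour 3 (1.71, adjusted p = 0.0772), 16 h culture 22 (1.73), 6 h culture 6 (1.75) or 6 h culture 13 (1.82), or against 6 h cultures alone (1.65, adjusted p = 0.0660). The promoter of Plau is shown because its responses had opposite signs. The capitals mark 1 GCGTG, the core of the hypoxia response element, at position -7 from the gene's start, and 1 match to the interferon-stimulated element at position -147, on the minus strand of chr15:3511938-3512237 (RefSeq, GRCr8).
Plau: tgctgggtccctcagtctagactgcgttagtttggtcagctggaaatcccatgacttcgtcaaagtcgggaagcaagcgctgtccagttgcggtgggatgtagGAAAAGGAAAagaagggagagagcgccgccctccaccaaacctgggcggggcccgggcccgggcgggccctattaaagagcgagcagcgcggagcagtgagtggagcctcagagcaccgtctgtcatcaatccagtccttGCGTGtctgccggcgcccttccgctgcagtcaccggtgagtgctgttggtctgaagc

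The other 2 genes on this side were near level in culture. Vapa, a membrane protein of the endoplasmic reticulum that tethers it to other organelles, had tumour responses of 0.94, 1.56 and 1.18, and culture responses between -0.28 and 0.07. Its difference was 1.33 ± 0.22 (SE; limma adjusted p = 0.0418). Phf23, a PHD finger protein, had tumour responses of 1.03, 1.19 and 1.23, and culture responses between -0.25 and 0.13. Its difference was 1.21 ± 0.18 (SE; limma adjusted p = 0.0285). When 1 of the 9 pairs was left out, Vapa passed in 1 case of 9 and Phf23 in 3 cases. Atf3, Vapa and Phf23 thus shared a mean culture response within 0.5 of 0, unlike Plau.

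Among the 27 genes on the lower side are 5 known from immune cells or signals, put together here after the calls were seen. None of them is on the macrophage, T and NK cell, MHC class II or interferon lists. Those lists held 0 calls, where 0.216% of all genes were called. Ly6c, known in mice as a surface antigen of monocytes and some lymphocytes, had log2 signals of 4.07, 4.25 and 4.11 in hypoxic areas, against 6.70, 6.89 and 7.61 in normoxic areas. The 12 culture arrays lay between 3.23 and 3.69. The hypoxic areas thus came close to the level of cultured cells, and normoxic areas stood far above both. The tumour response was -2.92, the culture responses were -0.05 at 6 h and -0.19 at 16 h, and the difference was -2.80 ± 0.23 (SE; limma adjusted p = 0.00217, the smallest of all probe sets). Ly6c belongs to a family of similar genes, and whether its probe set separates them was not tested. It lies among the dimmest 25% of probe sets on all 12 culture arrays, which leaves little room for a fall in the dish.

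Another 4 genes of this kind passed. Samd9l, an interferon-induced gene, had tumour responses of -1.31, -2.12 and -3.54, and culture responses between -0.34 and 0.16. It was also among the dimmest on all culture arrays, its difference was -2.25 ± 0.37 (SE; limma adjusted p = 0.0443), and it passed in 1 of the 9 fits that left out a pair. Aim2, the DNA sensor of an inflammasome, averaged 6.19 ± 0.34 in hypoxic and 7.94 ± 0.54 in normoxic areas (SD, n = 3 each), with culture responses between -0.27 and 0.47. Its difference was -1.94 and passed (limma adjusted p = 0.0285). Gimap7, a GTPase of lymphocytes, and Cxcl12, the chemokine ligand of CXCR4, had differences of -1.64 and -1.27 (limma adjusted p = 0.0443 each), and both lost the call whichever pair was left out. In normoxic tumours these 2 genes averaged 8.08 and 9.74, against 5.19 to 5.59 and 6.21 to 6.72 in normoxic cultures. All 5 genes were thus far above culture level in the tumour before any comparison of oxygen.

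In bulk samples such as these, fewer cells of a type and less RNA per cell cannot be told apart. Marker lists of some host cells had lower responses in tumours too, although no member of them passed. Of 17 measured macrophage markers, 0 passed and 14 had a lower response in tumours, with a median difference of -0.57, against 0.083 over all genes. Their mean level was 7.52 to 8.07 in hypoxic areas and 8.14 to 8.68 in normoxic areas, against 5.35 to 5.53 in cultures. The MHC class II list had a mean level of 8.18 to 9.35 in hypoxic areas and 9.10 to 9.58 in normoxic areas, against 5.02 to 5.45 in cultures. In this list all 6 measured members had a negative difference (median -0.65), with median responses of -0.59, 0.10 and -1.16 in tumours 1, 2 and 3. For T and NK cells the mean level was 6.12 to 6.40 in hypoxic areas and 6.55 to 7.59 in normoxic areas, against 5.10 to 5.43 in cultures, and 13 of 14 markers had a negative difference (median -0.29). Markers of neutrophils did not share the lower response, with 8 of 9 positive and a median difference of 0.20. Those of B cells (2 measured) and skeletal muscle had medians of 0.12 and 0.16. In tumours the mean levels of these lists, 5.42 to 6.34, lay below the array medians of 6.36 to 6.50. Dim probe sets in general had similar differences, with medians of 0.14 in the dimmest signal band and 0.16 in the next. An opposite shift is therefore not shown. Array signals have no true 0, so no marker can be said to be absent. The macrophage median was -0.33, -0.22 and -1.13 in tumours 1, 2 and 3, so tumour 3 had the strongest shift, and the part of these cells in the results for Ly6c, Samd9l, Aim2, Gimap7 and Cxcl12 was not tested. Single markers with large differences that did not pass were C1qa, a complement subunit made by macrophages (-1.77, limma adjusted p = 0.0746), and Cd3d, a chain of the T cell receptor complex (-2.36, adjusted p = 0.0831). The T cell attractant Cxcl9 had a difference of -2.03 (adjusted p = 0.129), and the antiviral GTPase Mx1 one of -1.46 (adjusted p = 0.0752).

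Another 4 called genes encode enzymes of sterol, fatty acid or acetyl-CoA synthesis, of which Sqle and Nsdhl are on the cholesterol synthesis list. Sqle encodes squalene epoxidase, which uses molecular oxygen in an early step of sterol synthesis. Its log2 signal was 7.45, 8.16 and 8.47 in hypoxic areas, against 9.26, 9.70 and 9.54 in normoxic areas of tumours 1, 2 and 3. Across the 6 culture pairs its response lay between -0.01 and 0.42, with levels of 10.6 to 10.9 at 0.2% oxygen. The gene was lower in the hypoxic area of every tumour, and no culture pair came near such a fall. The difference was -1.71 ± 0.24 (SE; limma adjusted p = 0.0198), and Sqle passed in 16 of 21 alternatives.

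Nsdhl, a dehydrogenase that helps to remove the C4 methyl groups of sterols, had tumour responses of -1.90, -1.34 and -1.64, and culture responses between -0.06 and 0.42. Its difference was -1.79 ± 0.25 (SE; limma adjusted p = 0.0198). Elovl5, which elongates polyunsaturated fatty acids, had log2 signals of 7.02, 7.22 and 6.72 in hypoxic areas, against 8.48, 8.55 and 8.20 in normoxic areas. Its culture responses lay between 0.04 and 0.40, its difference was -1.61 ± 0.20 (SE; limma adjusted p = 0.0191), and it passed in 17 of 21 alternatives. Acss2, which makes acetyl-CoA from acetate, had a tumour response of -1.05, a mean culture response of 0.29 and a difference of -1.34 (limma adjusted p = 0.0331). All 4 enzymes were thus lower in hypoxic tumour areas by a factor of 2.07 to 3.08 and level or slightly higher at low oxygen in the dish. In normoxic tumours Elovl5 averaged 8.41, within the 7.91 to 8.67 of normoxic cultures, so its difference did not come with a level gap between tissue and cells.

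The cholesterol synthesis list as a whole had 12 measured members, of which 2 (Sqle and Nsdhl) passed and all 12 had a negative difference. Its median difference was -0.76, with a median response of -0.64 in tumours and 0.14 in cultures. By tumour the median response was -0.76, -0.45 and -0.93, and over the 6 culture pairs it ran from -0.05 to 0.56. Of the 12 members, 5 had 3 tumour responses below all 6 culture responses, namely Sqle, Nsdhl, Mvd, Insig1 and Srebf2. Of all genes, 4.9% were below in this way and 0.216% passed. Insig1, which retains the sterol sensor complex in the endoplasmic reticulum, had the largest difference (-2.27) without passing (limma adjusted p = 0.0975), and its second probe set gave -0.23. Srebf2, the master transcription factor of the pathway, had a difference of -0.73 (adjusted p = 0.285).

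Promoters of Nsdhl and Elovl5 are shown because their windows hold searched motifs. The window of Acss2 held 0 matches and is not printed. Capitals mark matches on either strand to the motifs searched. Nsdhl on the plus strand of chrX:155817110-155817409 held 1 GCGTG core, which reads as its reverse complement here. Elovl5 on the plus strand of chr8:87670914-87671213 held a palindrome that matches the ACGTG core on both strands, 1 GCGTG core and 1 TGACGTCA, the cyclic AMP response element that ATF/CREB factors bind.
Nsdhl: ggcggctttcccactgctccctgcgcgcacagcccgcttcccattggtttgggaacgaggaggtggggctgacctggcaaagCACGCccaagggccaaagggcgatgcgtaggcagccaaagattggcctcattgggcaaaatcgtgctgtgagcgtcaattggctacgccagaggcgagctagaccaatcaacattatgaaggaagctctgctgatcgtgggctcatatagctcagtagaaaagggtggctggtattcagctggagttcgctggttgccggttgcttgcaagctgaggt
Elovl5: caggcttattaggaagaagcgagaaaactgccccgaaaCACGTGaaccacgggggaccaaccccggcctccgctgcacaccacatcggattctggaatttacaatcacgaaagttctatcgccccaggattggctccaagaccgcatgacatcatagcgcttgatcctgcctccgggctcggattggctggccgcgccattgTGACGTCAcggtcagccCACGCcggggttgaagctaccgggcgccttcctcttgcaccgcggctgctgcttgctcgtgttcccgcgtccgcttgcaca

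Among the 27 were 5 genes of mitochondrial proteins. Slc25a40, a carrier of the inner membrane, had tumour responses of -1.80, -2.34 and -2.64, and culture responses between -0.17 and 0.51. Its difference was -2.41 ± 0.25 (SE; limma adjusted p = 0.00435), and it passed in 20 of 21 alternatives. Ndufs5, a subunit of complex I, had log2 signals of 6.05, 6.20 and 7.18 in hypoxic areas, against 8.18, 7.45 and 8.64 in normoxic areas. Normoxic cultures lay between 10.2 and 10.8, so normoxic tumours were already well below cultured cells. Its difference was -1.75 ± 0.24 (SE; limma adjusted p = 0.0198), and a second probe set of Ndufs5 passed too (-1.47, adjusted p = 0.0285).

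Sdhd anchors complex II in the membrane, and Etfdh passes electrons from fatty acid oxidation to ubiquinone. The difference was -1.38 for Sdhd (limma adjusted p = 0.0418) and -1.36 for Etfdh (adjusted p = 0.0356). Ucp2, an uncoupling protein family carrier, had tumour responses of -1.56, -1.62 and -2.01, culture responses between -0.47 and 0.06 and a difference of -1.52 (limma adjusted p = 0.0393). In the 9 fits that left out a pair, Ndufs5 passed in 5, Ucp2 in 2, and Sdhd and Etfdh in 1 each. Etfdh was one of the genes whose culture response passed by itself, at 0.44, with a tumour response of -0.92. The list of oxidative phosphorylation and TCA cycle genes holds none of these 5. Of its 18 measured members, 0 passed and 17 had a negative difference, with a median of -0.37. By tumour the list median was -0.32, -0.19 and -0.82, and over culture pairs it ran from -0.16 to -0.01.

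Etfdh and C2h4orf46 lie head to head on chromosome 2, and both passed. C2h4orf46, for which no role is given here, had tumour responses of -1.14, -1.70 and -1.61, culture responses between -0.29 and 0.19 and a difference of -1.43 ± 0.22 (SE; limma adjusted p = 0.0338). Their promoter windows in the RefSeq table overlap by 118 bases at chr2:167060891-167061008 (GRCr8), and that stretch is shown on the plus strand, in the direction of C2h4orf46, with its 1 GCGTG in capitals.
Etfdh and C2h4orf46: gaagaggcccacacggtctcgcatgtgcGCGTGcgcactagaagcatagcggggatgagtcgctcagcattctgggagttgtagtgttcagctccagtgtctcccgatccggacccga

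Cenpk and Terf1, which act at centromeres and telomeres, were also called on the lower side. Cenpk, a kinetochore protein, had log2 signals of 7.39, 6.62 and 6.64 in hypoxic areas, against 9.43, 8.57 and 9.28 in normoxic areas. The 6 culture responses lay between -0.03 and 0.55 and normoxic cultures between 10.7 and 11.3. Cenpk was therefore highest in the dish, lower in normoxic tumour areas and lowest in hypoxic ones. Its difference was -2.39 ± 0.25 (SE; limma adjusted p = 0.00435), and it passed in 20 of 21 alternatives. Terf1, which binds telomere repeats, had tumour responses of -1.31, -1.28 and -1.19 and a difference of -1.46 (limma adjusted p = 0.0356).

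Of 19 measured mitosis genes, 1 (Cenpk) passed and 16 had a negative difference, with a median of -0.53. Mitosis genes had a median response of -0.83 in tumours and -0.25 in cultures, and 3 of the 19 passed in each system by itself. Of all probe sets, 0.563% passed in tumours and 1.23% in cultures, and 0.216% of all genes passed in the difference. Ube2c, Cdc20 and Ccnb2 had positive differences of 0.87, 0.27 and 0.03, none of which passed. Of 19 DNA replication genes, 0 passed and 15 had a negative difference, with a median of -0.43. Pcna, the sliding clamp of replication, and Rrm2, a subunit of ribonucleotide reductase, missed the threshold with differences of -1.64 (limma adjusted p = 0.065) and -1.03 (adjusted p = 0.069).

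Eif4e3, a relative of the cap-binding translation factor eIF4E, had opposite responses. Its log2 signal was 8.26, 8.52 and 8.46 in hypoxic areas, against 9.13, 9.30 and 9.61 in normoxic areas of tumours 1, 2 and 3. In 6 h cultures it was 9.67, 9.02 and 9.26 at 0.2% oxygen, against 8.57, 8.71 and 8.75 at 20%. In 16 h cultures it was 9.51, 9.35 and 9.31 at 0.2% oxygen, against 8.66, 8.69 and 8.45 at 20%. The gene was higher at low oxygen in all 6 culture pairs and lower in all 3 tumours, the reverse of Plau. The difference was -1.65 ± 0.27 (SE; limma adjusted p = 0.0443), near the threshold, and it passed in 1 of the 9 fits that left out a pair.

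Klhl28 and Phtf1 had the same arrangement at smaller size. Klhl28 had a tumour response of -1.04 and a mean culture response of 0.44, and Phtf1 had -0.86 and 0.43. Their differences were -1.48 (limma adjusted p = 0.0356) and -1.29 (adjusted p = 0.0443), and their culture responses passed while the tumour responses did not (adjusted p = 0.0652 and 0.097).

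The remaining called genes on the lower side have varied roles. Ost4, a small subunit of the oligosaccharyltransferase that glycosylates proteins, had tumour responses of -2.75, -2.03 and -1.79, and culture responses between -0.03 and 0.25. Its difference was -2.34 ± 0.22 (SE; limma adjusted p = 0.00362), and it passed in 20 of 21 alternatives. Taf13, a subunit of the general transcription factor TFIID, and Mllt3, a reader of acylated histones in transcription elongation, had differences of -1.84 (limma adjusted p = 0.032) and -1.81 (adjusted p = 0.0285). Leprotl1, Ogn and Ube2z had differences of -1.86, -1.69 and -1.34 (limma adjusted p = 0.0198, 0.0443 and 0.0198). They passed in 4, 1 and 5 of the 9 fits that left out a pair. Ogn encodes osteoglycin, a proteoglycan of the matrix, and Ube2z a ubiquitin-conjugating enzyme.

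Slc44a2, a choline transporter-like protein, had the largest negative difference, but not in both of its probe sets. Its log2 signal was 3.64, 5.87 and 4.06 in hypoxic areas, against 5.58, 9.48 and 6.96 in normoxic areas, so the 3 tumours differed widely in level. The difference was -2.89 ± 0.45 (SE; limma adjusted p = 0.0356). A second probe set of the gene gave -0.16 (adjusted p = 0.862), so the 2 probe sets disagree.

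**Figure D2:**
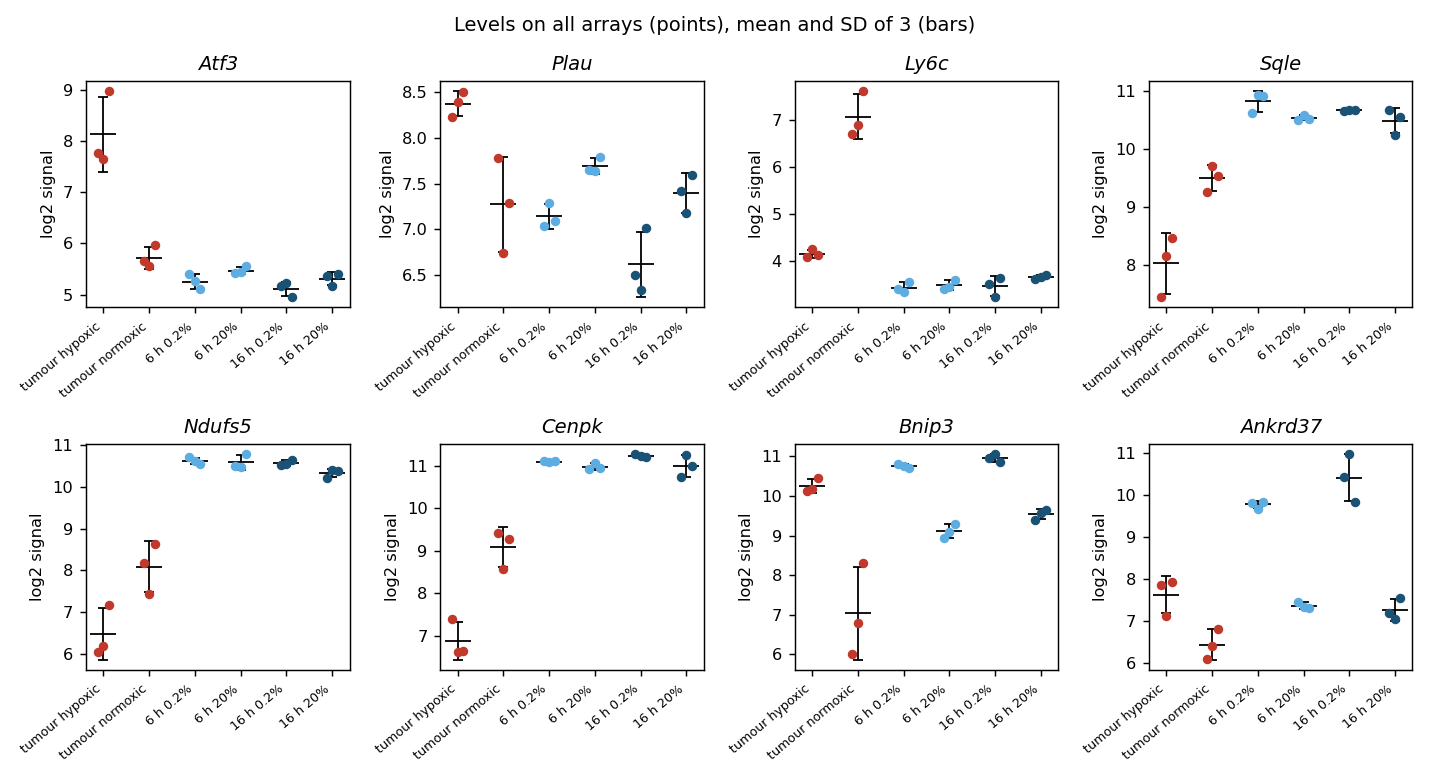
Log2 signal (y axis) of 8 genes on all 18 arrays, in hypoxic and normoxic tumour areas and in cultures at 0.2% and 20% oxygen for 6 h and 16 h (x axis), with points for arrays and bars for the mean and SD of 3. Atf3 is raised only in hypoxic tumour areas among these 6 groups, Plau goes opposite ways in tumours and cultures, Ly6c is near culture level in hypoxic areas, Sqle, Ndufs5 and Cenpk are lowest there, and Bnip3 and Ankrd37 are higher at low oxygen in both systems.

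Well-known HIF targets did not pass the test of the difference, which 0.216% of all genes passed. In lists of this size 0 calls is near that share and does not show equal responses. Of 21 measured glycolysis genes, 0 passed. Their median response was 0.86 in tumours and 0.55 in cultures, and the median difference was 0.17, which turned to -0.12 without tumour 1. Of 29 other HIF targets, 0 passed, with a median response of 1.02 in tumours and 1.20 in cultures and a median difference of -0.18. That median had no settled sign, since it was 0.079 with quantile normalization, 0.003 with arrays scaled to the same median and SD and 0.18 without tumour 2. Vegfa, the vessel growth factor, had tumour responses of 2.06, 1.34 and 1.86, and culture responses of 1.16, 1.07 and 0.89 at 6 h and 1.64, 1.08 and 1.03 at 16 h. Its difference was 0.61 (95% interval 0.03 to 1.19, limma adjusted p = 0.502). Car9, a carbonic anhydrase at the cell surface, had a difference of 0.36 (95% interval -0.36 to 1.08), which leaves room for a higher or a lower tumour response. For Slc2a1, the glucose transporter GLUT1, the tumours disagreed with responses of 3.44, 2.01 and 0.26, and the interval of the difference ran from -0.70 to 1.55. The difference of Slc2a1 turned to -0.34 without tumour 1.

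Single HIF targets leaned to either side without passing. Bnip3, a mitophagy receptor, had the largest tumour response of the named HIF targets, 4.11, 3.37 and 2.13 in tumours 1, 2 and 3, against 1.87, 1.66 and 1.41 at 6 h and 1.57, 1.49 and 1.21 at 16 h in culture. Its level in hypoxic areas was 10.1, 10.2 and 10.4, while normoxic areas had 6.01, 6.80 and 8.32, so the spread between tumours lay on the normoxic side. The difference of Bnip3 was 1.67 ± 0.34 (SE; limma adjusted p = 0.0948), and its second probe set gave 1.22 (adjusted p = 0.177). Slc16a3, the lactate exporter MCT4, had tumour responses of 0.94, 1.63 and 1.22, and culture responses between -0.27 and 0.30, with a difference of 1.24 (adjusted p = 0.0815). Pfkfb3, which makes the activator of phosphofructokinase, had a difference of 1.03 (limma adjusted p = 0.0695). Aldoa, Pgk1 and Pgam1 of glycolysis also had 3 tumour responses above all 6 culture responses, as Bnip3, Slc16a3 and Pfkfb3 did, with differences of 0.92, 0.88 and 0.42, none of which passed. Of the 21 glycolysis genes, 5 were above in this way and 1 below, against 5.2% and 4.9% of all genes.

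On the other side stood Ankrd37, with tumour responses of 1.76, 0.70 and 1.11, against 2.36, 2.35 and 2.54 at 6 h and 3.24, 3.93 and 2.30 at 16 h in culture. Its difference was -1.60 ± 0.46 (SE; limma adjusted p = 0.243). Ddit4, an inhibitor of mTORC1 also called REDD1, had tumour responses of -0.14, -0.23 and 0.68, and culture responses between 0.86 and 2.15. Normoxic tumours already had Ddit4 at 8.75 ± 0.70 (SD, n = 3), above normoxic cultures at 6.29 to 7.08, and hypoxic tumour areas were at 8.85 ± 0.28. Its difference was -1.37 (limma adjusted p = 0.115). Bnip3l, Pdk1, Mxi1 and Insig2 had 3 tumour responses below all 6 culture responses, as Ankrd37 and Ddit4 did, with differences of -1.01, -0.87, -1.11 and -1.34, and none passed. Of the 29 other HIF targets, 1 was above in this way and 5 below, against 5.2% and 4.9% of all genes. Hif1a and Epas1, which encode HIF-1α and HIF-2α, had differences of 0.36 (95% interval -0.18 to 0.91) and 0.26 (-0.21 to 0.74).

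**Figure D3:**
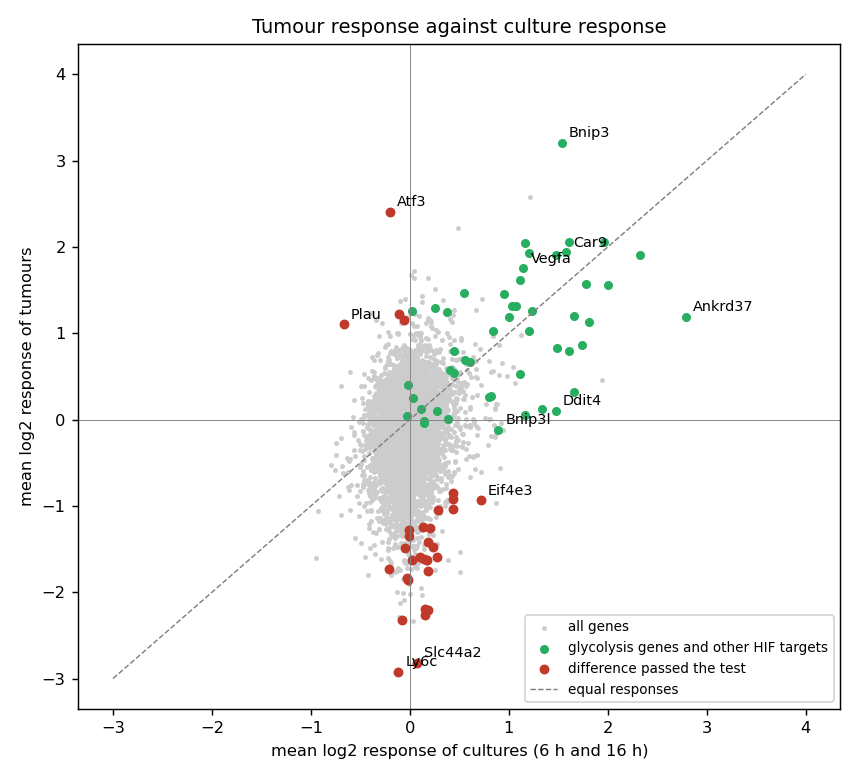
Mean log2 response of tumours (y axis) against the mean log2 response of cultures (x axis) for 14324 genes, with genes of the glycolysis and other HIF target lists and the called genes coloured and the dashed line at equal responses. The called genes lie on the vertical axis or to the side of it, where the culture response is small or opposite, and HIF targets lie in the upper right on both sides of the dashed line.

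Across 14324 genes, tumour and culture responses correlated at Pearson's r = 0.195, against 0.433 between 6 h and 16 h in culture. These are descriptions, since genes are not independent replicates and all arrays share a platform. Tumour responses also varied more from pair to pair (median SD 0.334, against 0.196 in cultures). The part of this spread in the lower correlation was not tested. Of the 247 probe sets that were higher at low oxygen in culture by the test, 183 (74.1%) were also above 0 in tumours, where 64.8% of all probe sets were above 0. Of the 90 that were lower in culture, 67 (74.4%) were also below 0 in tumours, where 35.2% of all were. The median response of the 247 was 0.30 in tumours and 0.60 in cultures, and that of the 90 was -0.32 in tumours and -0.47 in cultures. The culture values of these sets were chosen by the culture test and the tumour values were not.

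Among the stress lists around Atf3, Atf3 was the called gene, where 0.216% of all genes were called. On the list for unfolded proteins and integrated stress, 1 of 21 measured genes (Atf3) passed and 14 had a negative difference, with a median of -0.17, which turned to 0.044 without tumour 3. Slc3a2, the amino acid transporter heavy chain, had a difference of 1.20 (limma adjusted p = 0.115). Of 18 immediate early genes 0 passed and 14 had a positive difference (median 0.17), with Egr1 at 1.26 (adjusted p = 0.275). Of 12 heat shock genes 0 passed and 8 had a positive difference, with a median of 0.40 (0.32 to 0.65 over the alternatives) and values of 1.66 for Hsph1 (limma adjusted p = 0.174) and 1.74 for Hspb1 (adjusted p = 0.349).

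The plasminogen system and its matrix proteases had 18 measured members, of which 1 (Plau) passed and 13 had a positive difference, with a median of 0.26. Mmp2, Mmp14, Timp2 and Ctsb also had 3 tumour responses above all 6 culture responses, with differences of 0.85, 0.63, 0.54 and 0.24, none of which passed. With Plau, 5 of the 18 were above in this way, against 5.2% of all genes. Ribosome biogenesis genes had the highest list median, 0.44, with 13 of 14 positive, 0 passed and median responses of 0.04 in tumours and -0.31 in cultures. The culture response passed in 3 of the 14 (1.23% of all probe sets) and the tumour response in 0 (0.563% of all). Of the other lists, none held a called gene. Interferon response genes had a median difference of -0.43 and p53 targets one of -0.42, while markers of endothelium were at -0.04, of pericytes and smooth muscle at 0.17, of neutrophils at 0.20 and of adipocytes at 0.23. The interferon list varied by tumour, with median responses of -0.54, -0.21 and -1.45 in tumours 1, 2 and 3. Over the 27 lists, 4 held a called gene, and 26 of the 31 called genes stood in no list. Of all genes 0.216% were called, so 0 calls in a list of this size is near that share.

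**Figure D4:**
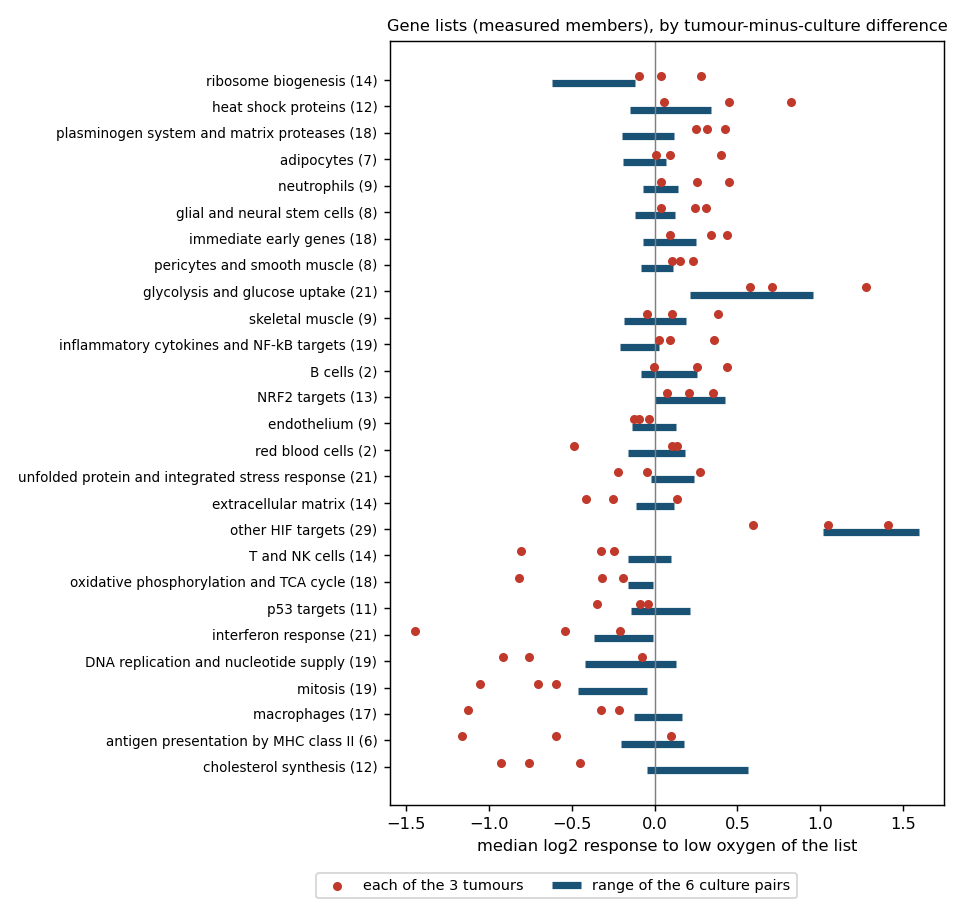
Median log2 response to low oxygen (x axis) of 27 gene lists (y axis, with the number of measured members), for each of the 3 tumours (points) and as the range of the 6 culture pairs (bars), ordered by the tumour minus culture difference. Cholesterol synthesis, at the bottom, has 3 tumour points between -0.93 and -0.45 and a culture range from -0.05 to 0.56, and ribosome biogenesis, at the top, has tumour points between -0.09 and 0.28 and a culture range from -0.62 to -0.12.

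Promoters of the called genes were searched for 6 short motifs on both strands, in the RefSeq windows from 250 bases before to 50 after each gene's start. The windows of 23 of the 31 genes were in the table. GCGTG was in 12 of the 23, and in 31.1% of all 27457 windows. The overlapping windows of Etfdh and C2h4orf46 hold the same GCGTG, which is counted for both genes. ACGTG was in 5 of the 23 and in 19.7% of all. TGACGTCA was in 1 (Elovl5) and in 1.91% of all, and the interferon-stimulated element was in 2 (Plau and C2h4orf46) and in 3.77% of all. The AP-1 motif TGANTCA and the C/EBP-ATF element TGATGNAA were in 0 of the 23, and in 7.33% and 3.82% of all windows. A match is only a run of letters in this window and says nothing on binding.

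Genes on both sides of the threshold had similar ratios of difference to error. Just inside stood Samd9l (-2.25), Eif4e3 (-1.65) and Gimap7 (-1.64), and just outside, at a shared limma adjusted p of 0.0519, Hcst (-2.16), Btbd1 (-1.01), G2e3 (-1.41) and Lag3 (-2.02), of which Hcst and Lag3 are genes of T and NK cells.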

How the data were processed

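RNA of captured tumour areas and of cultured cells was linearly amplified (NuGEN Ovation WT-Pico) and read on Rat Gene 1.0 ST arrays of Affymetrix, per the labels' protocols. The authors deposited 1 log2 signal per probe set and array, and the submitters' processing notes name RMA and Partek 6.5b. Joint or separate normalization of tumours and cultures, and the annotation, are not given in the sources. RMA removes differences in overall signal within a set of arrays, and array medians and spreads still differed between tumours and cultures.

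The members and lists were chosen with earlier results of these data known. Gene symbols are those of the platform annotation. Of 27363 probe sets, 15097 had 1 symbol, 323 several and the rest none, and 15067 matched a rat gene table by Entrez ID. The probe set with the highest mean stood for a gene (14324 genes, 499 of them with more than 1 probe set).

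In R 4.3.3, limma 3.58.1 (lmFit and eBayes, two-sided) was fitted to the 9 within-pair differences of every probe set, with 1 weight per system (arrayWeights, 0.411 for tumours and 1.56 for cultures) and Benjamini-Hochberg adjustment over all probe sets at 0.05. Tumour areas are paired by the tumour. Culture arrays were paired by number: arrays with the same number deviated from their groups together, with correlations of 0.125 to 0.193 at 6 h and 0.130 to 0.307 at 16 h, and of 0.0357 to 0.273 for tumours. For 6 h culture 6 and tumour 2 the highest correlation with another number was larger, at 0.177 against 0.125 and 0.167 against 0.0357. Levels of different genes are not compared, since signals depend on the probes.

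Genes were named by a rule: Atf3, Plau and Ly6c, the 15 largest called differences per direction, filled up by p, from each list the 3 genes of smallest p, and 7 genes in any case. Of the other genes in the text, the 12 called ones from Gimap7 to Cxcl12 in order of size, and list members whose pairs did not overlap, were chosen after their values were seen. So were Hcst, Btbd1, G2e3 and Lag3 just outside the threshold, and Cdc20 and Ccnb2 of the mitosis list. Gfap, S100b and Nes were named for their levels only. There were 27 lists, 16 for pathways and 11 for cell types, and 370 of their 422 genes were measured. Alternatives were a pooled spread, other pairings, 1 culture time, 4 scalings, a filter on dim probe sets, another variance prior, a least difference and each pair left out. Promoter windows came from RefSeq (GRCr8).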

Additional observations from a re-analysis of the deposited data

Results flagged for a closer look

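The 31 named genes whose response differed between tumours and cultures by the test of the difference (limma, adjusted p under 0.05) are listed here with that difference in log2 units, tumour minus culture. The 4 higher ones were Atf3 (2.61), Plau (1.77), Vapa (1.33) and Phf23 (1.21). Grouped by known role after the calls were seen, those tied to immune cells on the lower side were Ly6c (-2.80), Samd9l (-2.25), Aim2 (-1.94), Gimap7 (-1.64) and Cxcl12 (-1.27), those of lipid synthesis Nsdhl (-1.79), Sqle (-1.71), Elovl5 (-1.61) and Acss2 (-1.34), and those of mitochondria Slc25a40 (-2.41), Ndufs5 (-1.75), Ucp2 (-1.52), Sdhd (-1.38) and Etfdh (-1.36). Those of the centromere and telomere were Cenpk (-2.39) and Terf1 (-1.46). Genes with a passed rise in culture and a negative tumour response were Eif4e3 (-1.65), Klhl28 (-1.48) and Phtf1 (-1.29), beside Etfdh. The remaining ones were Slc44a2 (-2.89), Ost4 (-2.34), Leprotl1 (-1.86), Taf13 (-1.84), Mllt3 (-1.81), Ogn (-1.69), C2h4orf46 (-1.43) and Ube2z (-1.34).

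In 13 of the 46 called probe sets the normoxic tumour level was at least 1 log2 unit above that of normoxic cultures, and in 13 at least 1 below. On all 12 culture arrays, 8 of the 46 lay among the dimmest 25% of probe sets (17.4%), against 20.2% of all probe sets. The part of such level gaps in the differences was not tested.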

How the results depend on the processing

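The 46 calls (4 higher, 42 lower) became 319 (49 and 270) with 1 pooled spread for both systems, which includes all 46. With the tumour number alone as replicate block there were 120 (8 and 112), and with no replicate block 47 (2 and 45), of which 31 were shared. Against 6 h cultures alone there were 21 (2 and 19), and against 16 h cultures alone 37 (2 and 35). Quantile normalization gave 100 (17 and 83), cyclic loess 73 (8 and 65), scaling to the same median and SD 74 (8 and 66), and median centring 50. Cyclic loess shifted the median of all probe sets by -0.098. Without the dimmest 25% of probe sets there were 23 (20 lower), with the trended and robust prior 0 (0 and 0), and with a least difference of 0.5 there were 5 (1 and 4). Leaving out 1 pair gave 7 to 94 calls, 1 to 7 higher and 6 to 92 lower. The cause of these shifts was not tested, beyond fewer samples or probe sets where some were left out.

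All 31 genes kept their direction, which most alternatives could not have reversed, and each passed in 5 to 20 alternatives. Of 2467 alternative values of 118 genes, 2131 kept direction and side of the threshold, 281 lost the call, 48 gained one and 7 reversed. Slc2a1 ran from -0.34 without tumour 1 to 1.25 without tumour 3. Lum ran from -1.04 without tumour 2 to 0.020 without tumour 3, and Cd79b from -0.00088 without tumour 1 to 0.27 without tumour 3. Ms4a1 was -0.048 with quantile normalization and -0.060 with cyclic loess, and ran from -0.048 without tumour 3 to 0.29 without tumour 2. Emcn was -0.00098 with cyclic loess. Of 1134 list values, 1077 moved by less than the spread between tumours and 57 by more.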
